A study of Mus musculus with 16 samples.

Results

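The genes described here encode the nuclear-made subunits of the 5 complexes of oxidative phosphorylation, and they were examined in H3K27Ac ChIP-seq peak lists of mouse heart muscle cells. A gene was a member if its symbol in any of the 4 H3K27Ac lists began with Nduf (complex I), Uqcr (complex III), Cox4 to Cox8 (complex IV) or Atp5 (complex V), or was Sdha, Sdhb, Sdhc or Sdhd (complex II). This gave 77 members among 10928 genes named in the lists. Of these, 72 are subunits (32 of complex I, 3 of complex II, 5 of complex III, 15 of complex IV and 17 of complex V), 4 are complex I assembly factors (Ndufaf1, Ndufaf3, Ndufaf4 and Ndufaf8), and Atp5if1 is the inhibitor of the ATP synthase. Subunits were placed in a complex by the start of their symbol alone, so Ndufa4 is counted with complex I here whatever complex its protein joins. By symbol, the label of a gene set coding for subunits thus held for all but 5 members.

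The chromatin came from adult cardiomyocytes of 3-month-old mice, isolated by perfusing the heart with enzymes. The 4 groups were Des+/+ basal (intact desmin, no exercise), Des-/- basal (desmin null, no exercise), Des+/+ swim (intact desmin, after swimming as a stress) and Des-/- swim (desmin null, after the same stress), and each was 1 library made from several pooled animals. Values for the 4 libraries are given in that order throughout, here called the list order. The study's methods describe a mouse line with an αMHC-GFP reporter, which the labels of these libraries do not name. Library read totals were not used here, so depth is unknown beyond the heights themselves. H3K27Ac (histone H3 acetylated at lysine 27) marks active promoters and enhancers. With 1 library per group no spread between animals could be measured, so every difference compares 2 libraries and no test was run. Intervals of ratios are for counting error of reads only, and those of shares count genes within a library.

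The respiratory chain passes electrons from NADH (complex I) or succinate (complex II) through complex III to oxygen at complex IV, and the proton gradient built on the way drives the ATP synthase, complex V. Most of its subunits are encoded in the nucleus, and heart muscle, which beats without rest, is among the tissues richest in them. Desmin is the intermediate filament of muscle. It ties the contractile apparatus to mitochondria and the nucleus, and defects of mitochondria are a known feature of hearts that lack it. Promoters of these genes are known to be bound by NRF1, by the ETS factor GABP (whose DNA-binding subunit is Gabpa), by the estrogen-related receptors (ERR), and by YY1 and Sp1.

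The stretches below run from 200 to 31 bases before the start of 5 members on whose peaks the results turn, written 5′ to 3′ on the gene's strand. The sequences are those of RefSeq for build GRCm38.p6, the build of the peak lists. Both forms of 2 complex IV subunits are shown (Cox8a and Cox7a2, made in most tissues, and Cox8b and Cox7a1, made in heart and skeletal muscle), followed by Cox6a1, whose muscle form is Cox6a2. Capitals mark the motifs searched for on both strands (AAGGTCA for ERR, GCATGCGC for NRF1, CCGGAAG for the ETS factors, AAGATGGC for YY1, GGGCGG for Sp1, TATAAA for the TATA box and TATTTATA for MEF2).
Cox8a, chr19:7217647-7217816, minus strand: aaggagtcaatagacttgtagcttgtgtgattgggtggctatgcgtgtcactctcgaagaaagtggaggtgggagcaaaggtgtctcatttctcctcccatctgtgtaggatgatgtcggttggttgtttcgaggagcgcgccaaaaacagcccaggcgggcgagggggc
Cox8b, chr7:140900477-140900646, minus strand: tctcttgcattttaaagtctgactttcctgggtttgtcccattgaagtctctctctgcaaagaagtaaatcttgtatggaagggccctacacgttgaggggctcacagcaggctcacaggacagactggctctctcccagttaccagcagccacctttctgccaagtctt
Cox7a2, chr9:79759884-79760053, minus strand: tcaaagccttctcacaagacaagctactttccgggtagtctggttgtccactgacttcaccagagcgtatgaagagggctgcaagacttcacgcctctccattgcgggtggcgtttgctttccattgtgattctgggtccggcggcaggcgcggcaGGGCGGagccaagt
Cox7a1, chr7:30183971-30184140, plus strand: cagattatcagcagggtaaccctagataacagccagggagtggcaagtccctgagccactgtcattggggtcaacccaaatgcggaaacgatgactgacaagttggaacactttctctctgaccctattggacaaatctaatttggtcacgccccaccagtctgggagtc
Cox6a1, chr5:115348989-115349158, minus strand: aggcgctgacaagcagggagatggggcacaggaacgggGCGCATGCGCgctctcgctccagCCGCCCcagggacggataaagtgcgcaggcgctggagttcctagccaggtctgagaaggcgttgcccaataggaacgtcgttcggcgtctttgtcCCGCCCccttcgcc

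The upstream stretches of the muscle forms held few CG pairs. Cox8b had 1 and Cox7a1 had 3, against 8 in Cox8a and 10 in Cox7a2. Over the 250 bases before the start, the ratio of CG pairs found to those its C and G content would give was 0.0726 in Cox8b and 0.244 in Cox7a1, the lowest values among the 66 of 77 members that could be matched by gene ID to the RefSeq promoter table. The median of these 66 was 0.759, close to the 0.763 of the 7953 matched genes with a promoter peak in any list and above the 0.380 of all 27025 genes in the table. The median content of G and C was 56.4% in the 66 members, 60.8% in the genes with a promoter peak and 52.4% in all genes. Cox6a1 held the most CG pairs of the printed set, 17, with overlapping NRF1 matches on both strands and 2 Sp1 matches. Cox7a2 held an Sp1 match. Neither Cox8a, Cox8b nor Cox7a1 held a match in the printed stretch.

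Over the same 250 bases the NRF1 letters were found in 8 of the 66 members (12.1%), against 5.17% of matched genes with a promoter peak and 2.36% of all genes in the table. The 8 were Atp5mc2, Atp5me, Atp5mg, Cox6a1, Ndufa6, Ndufa8, Ndufaf4 and Sdhb. The ERR letters were found in 6 members (9.09%), against 2.64% of genes with a promoter peak and 4.03% of all genes, and those members were Atp5if1, Atp5mc3, Atp5mg, Ndufb2, Ndufb4 and Ndufs5. For ETS the count was 12 members (18.2%), against 15.01% and 7.17%. The YY1 letters were in 1 member, Atp5pf (1.52%), against 2.04% and 1.57%. The Sp1 letters were in 25 members (37.9%), against 62.4% of genes with a promoter peak and 33.3% of all genes. The TATA letters were in 5 members (7.58%), against 6.17% and 12.9%, and the MEF2 letters in 0 of 66, against 0.956% and 1.63%. The windows lie before RefSeq starts, of which 62 of 66 were within 100 bp of a start that the lists used. For Atp5if1 and Atp5pf the gap was 1926 and 737 bp. A match is only a run of letters, and none of these counts was tested.

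Acetylation at the starts of these genes was widespread and high in all 4 libraries. A promoter peak is a peak whose nearest edge lies within 3 kb of the gene's annotated start, and such a peak was assigned to 72, 71, 64 and 66 of the 77 members in the list order, or 93.5, 92.2, 83.1 and 85.7%. The shares over all named genes were 79.1, 83.2, 59.5 and 59.1%. In all, 59 members (76.6%, 95% Wilson interval 66.0 to 84.7%) had one in all 4 lists, against 48.1% of all genes. The cytosolic ribosomal protein genes came close at 70.9% of 86, and the mitochondrial ribosomal protein genes stood at 40% of 60. A peak is listed only if it is at least 15 reads high, so a missing peak means a lower or less certain signal and not the absence of acetylation.

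Among the complexes, the ATP synthase was the most complete, with 16 of 17 subunit genes in all 4 lists. The counts were 26 of 32 for complex I, 2 of 3 for complex II, 4 of 5 for complex III and 11 of 15 for complex IV. None of the 4 complex I assembly factors was in all 4. The authors' annotation gives a peak to 1 gene only, so a start that lies beside another gene's start can lose its peak to the neighbour. When any peak within 3 kb of a member's start was counted, whichever gene it was given to, the members with a peak numbered 76, 75, 67 and 68, and those with one in all 4 lists 64 (83.1%, 73.2 to 89.9%), against 54.6% of all genes. All 17 complex V genes then had a peak in each list.

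Height is the largest number of overlapping reads in a peak, and where a gene had several promoter peaks the highest was used. The member medians were 39.5, 41, 32 and 31.5 reads. Over all genes with a promoter peak the medians were 28, 30, 23 and 27 reads. Since heights depend on how deeply a library was sequenced, each gene was also ranked within its own list, where the middle gene stands near the 50th percentile. The member median stood at the 71.4, 70.0, 73.9 and 63.3 percentile. The number of members above the 75th percentile of their list was 29, 30, 30 and 25, which was 40.3, 42.3, 46.9 and 37.9% of those with a peak. The cytosolic ribosomal protein genes stood at 65.2, 70.0, 62.1 and 63.3, and the mitochondrial ribosomal protein genes, which encode the ribosome that makes the mitochondrial subunits of the same complexes, at 36.4, 32.2, 29.2 and 27.3.

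**Figure D1:**
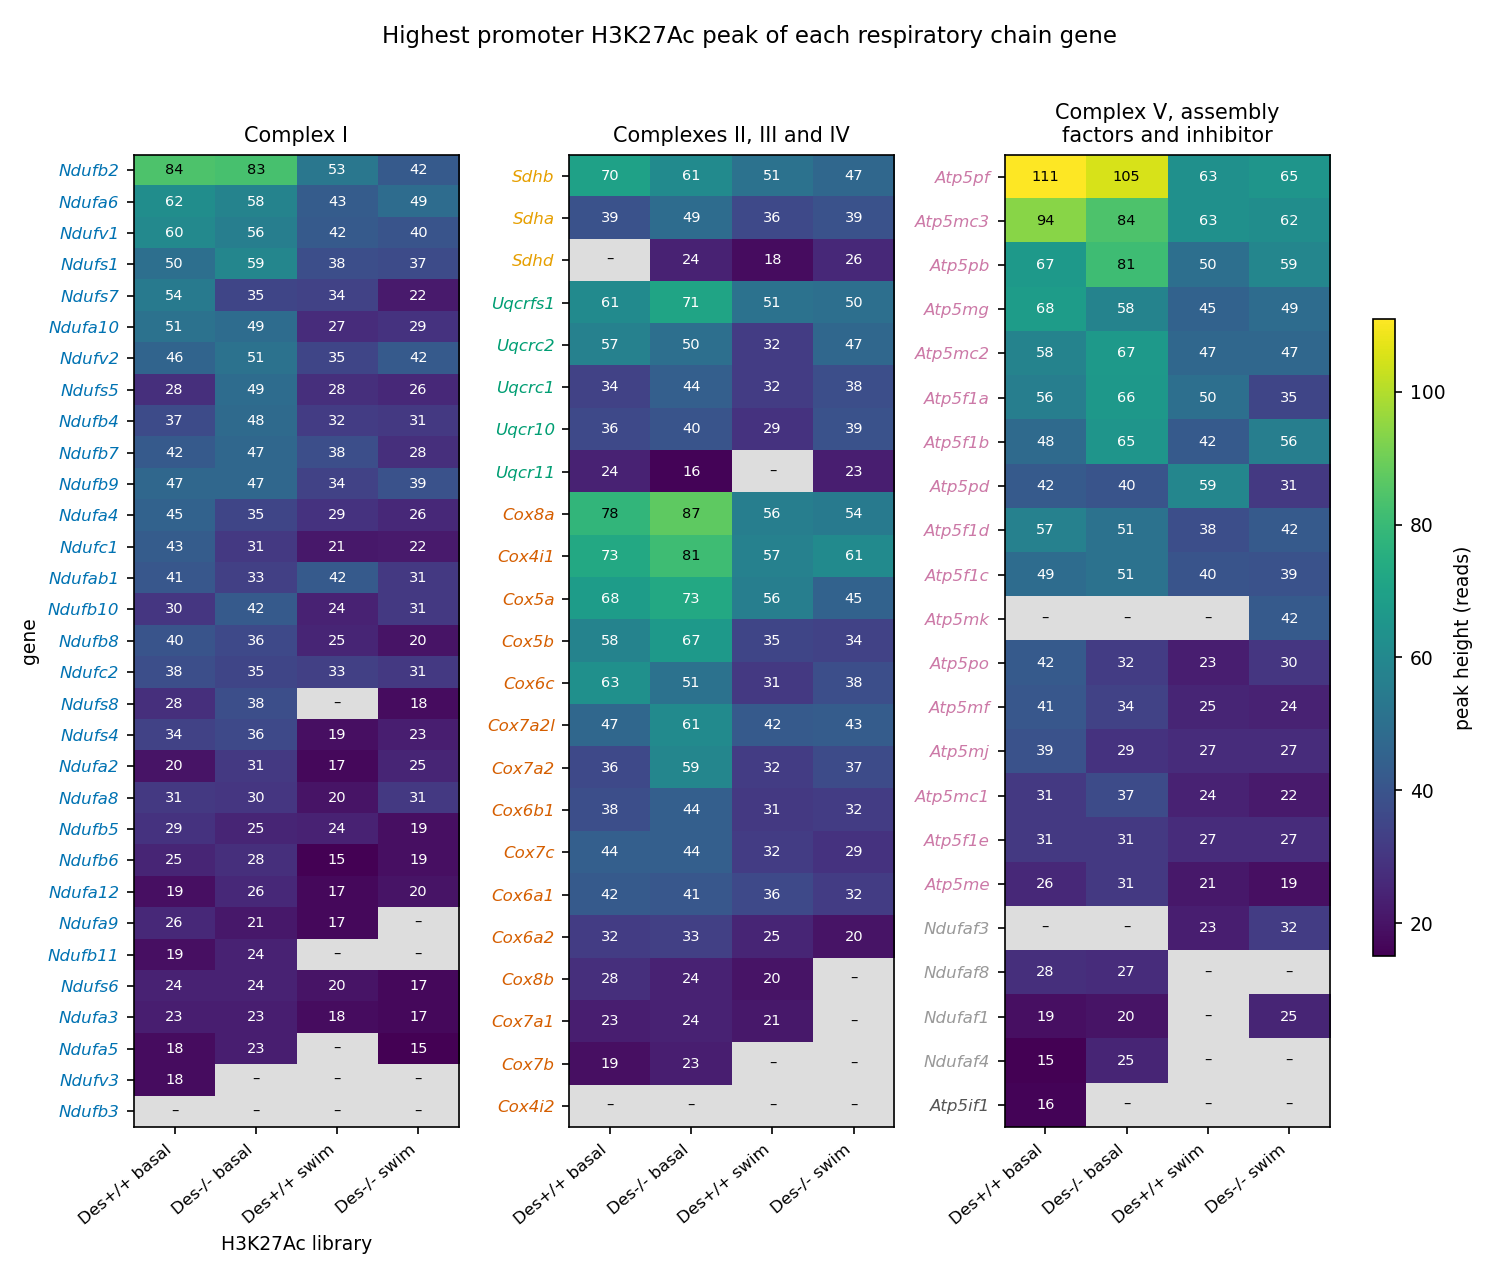
Height in reads of the highest promoter H3K27Ac peak of 76 of the 77 genes (rows, grouped by complex and coloured by it) in the 4 libraries (columns), with a dash on grey where no promoter peak was assigned. Atp5pf is the highest at 111 reads in Des+/+ basal, and most dashes stand beside low values.

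Complex V stood at or level with the top in the 4 lists. Its median percentile was 82.0, 80.5, 86.1 and 77.6. Complex II, with 2 or 3 genes, was at 82.0, 78.8, 80.4 and 77.6. For complex IV the values were 76.1, 77.1, 73.9 and 74.5, and for complex III they were 66.0, 73.6, 73.9 and 77.6. Complex I, the largest, was at 66.0, 61.5, 64.7 and 49.6, level with complex III in Des+/+ basal and the lowest of the 5 complexes in the other lists. The 6 core subunits of complex I that the lists name, most of which hold its flavin or iron-sulfur clusters, stood above the rest of that complex, at 81.4, 77.1, 79.0 and 70.8. The assembly factors stood at 18.5, 36.7, 48.3 and 53.7, over 3, 3, 1 and 2 genes with a peak. These are ranks of genes within 1 library each and were not tested. They leave out genes of a complex whose peak was given to a neighbour.

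**Figure D2:**
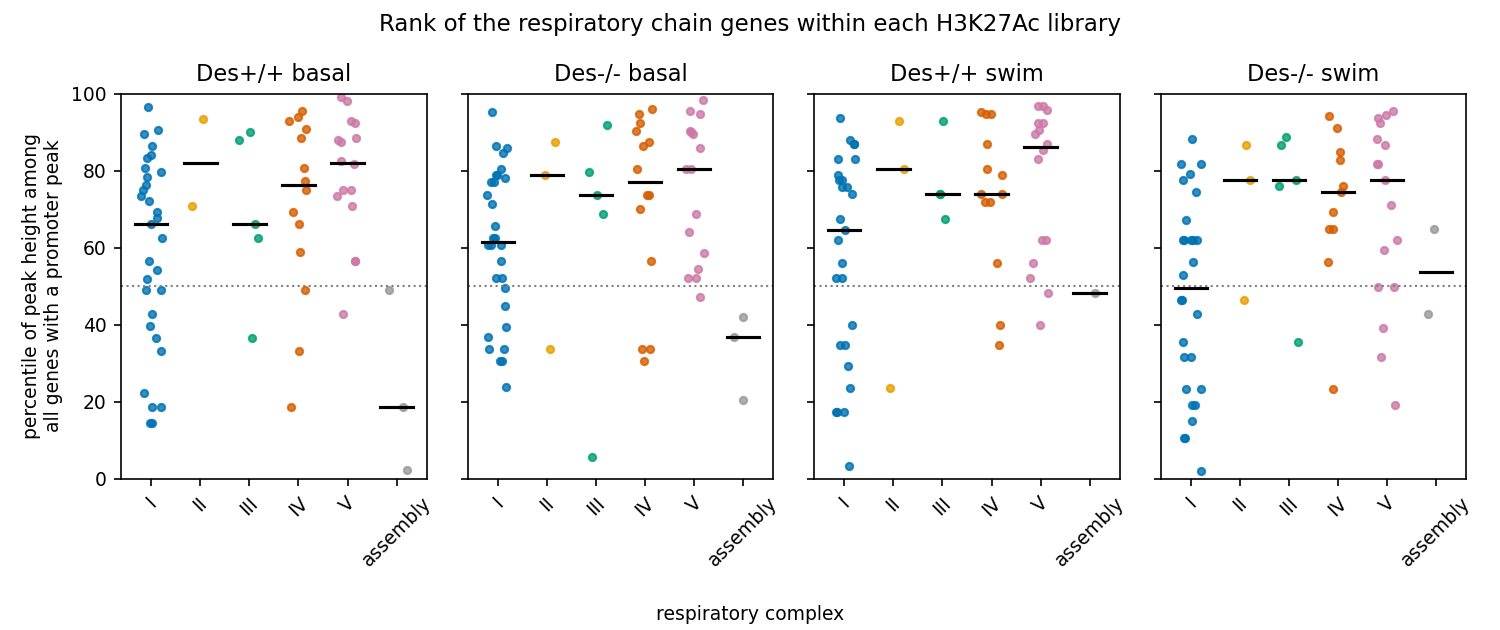
Percentile of each member's promoter peak height among all genes with a promoter peak in the same library (vertical axis), by complex, with 1 point per gene and a bar at the median. The dotted line is the 50th percentile, and complex V has its median between 77.6 and 86.1 in the 4 libraries.

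In complex V, the highest member of all was Atp5pf, which encodes coupling factor 6 of the stalk that holds the catalytic head in place. Its peak was 111, 105, 63 and 65 reads high, the tallest of any member in 3 lists and level with Atp5mc3 in Des+/+ swim. The peak in Des+/+ basal spanned chr16:84833830-84836380 (2551 bp). Its top lay 434 bp upstream of the RefSeq start and 1171 bp from the start that the deposited annotation used, and 286 bp from the nearest start of Gabpa, which lies within the same peak on the opposite strand. The lists gave no promoter peak to Gabpa itself in any library, so acetylation of the 2 genes cannot be told apart. In the other 3 lists the top lay 345, 177 and 298 bp from that Gabpa start.

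The 3 genes for the proton-carrying c subunit make the same mature protein and differ in height. Atp5mc3 was at 94, 84, 63 and 62 reads. Atp5mc2 was at 58, 67, 47 and 47 reads, and Atp5mc1 at 31, 37, 24 and 22 reads, so that the order Atp5mc3, Atp5mc2, Atp5mc1 held in each library. The catalytic head genes were at 56, 66, 50 and 35 reads (Atp5f1a) and 48, 65, 42 and 56 reads (Atp5f1b). Atp5pb, subunit b of the outer stalk, was at 67, 81, 50 and 59 reads. The lowest complex V subunit in 3 of the libraries was Atp5me, subunit e, at 26, 31, 21 and 19 reads, while in Des-/- basal Atp5mj was lower at 29 reads. Atp5f1b and Atp5mc2 were among the members with 2 promoter peaks in every list. For Atp5f1b in Des+/+ basal these were of 23 reads upstream at chr10:128082220-128083042 and of 48 reads across the start at chr10:128083231-128084265.

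In complex IV, Cox8a, Cox4i1 and Cox5a led. Cox8a was the highest of the complex in Des+/+ basal and Des-/- basal, at 78 and 87 reads, and stood at 56 and 54 reads after swimming. Cox4i1, the form of subunit 4 used in most tissues, was at 73, 81, 57 and 61 reads and was the highest of the complex in both swim libraries. Its counterpart Cox4i2, known mainly from lung and low oxygen, had no promoter peak in any list. The peaks the annotation gave to Cox4i2 lay 29603 to 33348 bp from its start, in the interval chr2:152784697-152790369, at 17 to 44 reads. Cox5a was at 68, 73, 56 and 45 reads. Cox7a2l, which takes part in joining complexes III and IV into supercomplexes, was at 47, 61, 42 and 43 reads, and Cox6b1 at 38, 44, 31 and 32 reads. Cox6b2, the testis form of the same subunit, is named in no list and had no peak within 3 kb of its start. Cox7b, on the X chromosome, was the lowest of the complex at 19 and 23 reads at rest, with no peak after swimming.

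For 3 subunits of complex IV a form made in most tissues and a form made in heart and skeletal muscle could be set side by side, and in every library with both peaks the muscle form had the lower one. Cox8a exceeded Cox8b (28, 24 and 20 reads, no peak in Des-/- swim) by 2.79-fold in Des+/+ basal (95% exact binomial interval of the ratio of reads 1.79 to 4.46), 3.62-fold in Des-/- basal (2.28 to 5.96) and 2.80-fold in Des+/+ swim (1.65 to 4.93). Cox7a2 (36, 59, 32 and 37 reads) exceeded Cox7a1 (23, 24 and 21 reads, no peak in Des-/- swim) by 1.57-fold (0.903 to 2.77), 2.46-fold (1.51 to 4.13) and 1.52-fold (0.852 to 2.78). Cox6a1 (42, 41, 36 and 32 reads) against Cox6a2 (32, 33, 25 and 20 reads) gave 1.31-fold (0.809 to 2.15), 1.24-fold (0.766 to 2.03), 1.44-fold (0.841 to 2.50) and 1.60-fold (0.887 to 2.95), with every interval holding 1. Thus the Cox8 pair differed beyond counting error in 3 of 3 libraries with both peaks, the Cox7a pair in 1 of 3 and the Cox6a pair in 0 of 4. The printed sequences of Cox8b and Cox7a1 are those with 1 and 3 CG pairs.

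Some member peaks began just past the start, those of the muscle forms among them. The peak of Cox6a2 began 12, 2, 27 and 73 bp past the start that the lists used, that of Cox8b 33 bp past it in Des+/+ basal and 12 bp in Des+/+ swim, and that of Cox7a1 23 and 26 bp past it in the same lists. In Des-/- basal the Cox8b and Cox7a1 peaks covered the start. Peaks of members other than muscle forms also began past the start, such as those of Cox7b (20 bp past the start in Des+/+ basal), Atp5me (79 and 17 bp in the swim lists) and Ndufa8 (60, 115 and 5 bp in the last 3 lists). Over all members a peak covered the start in 93.1, 95.8, 87.5 and 93.9% of cases, against 85.0, 85.6, 79.7 and 81.7% of other genes with a promoter peak.

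**Figure D3:**
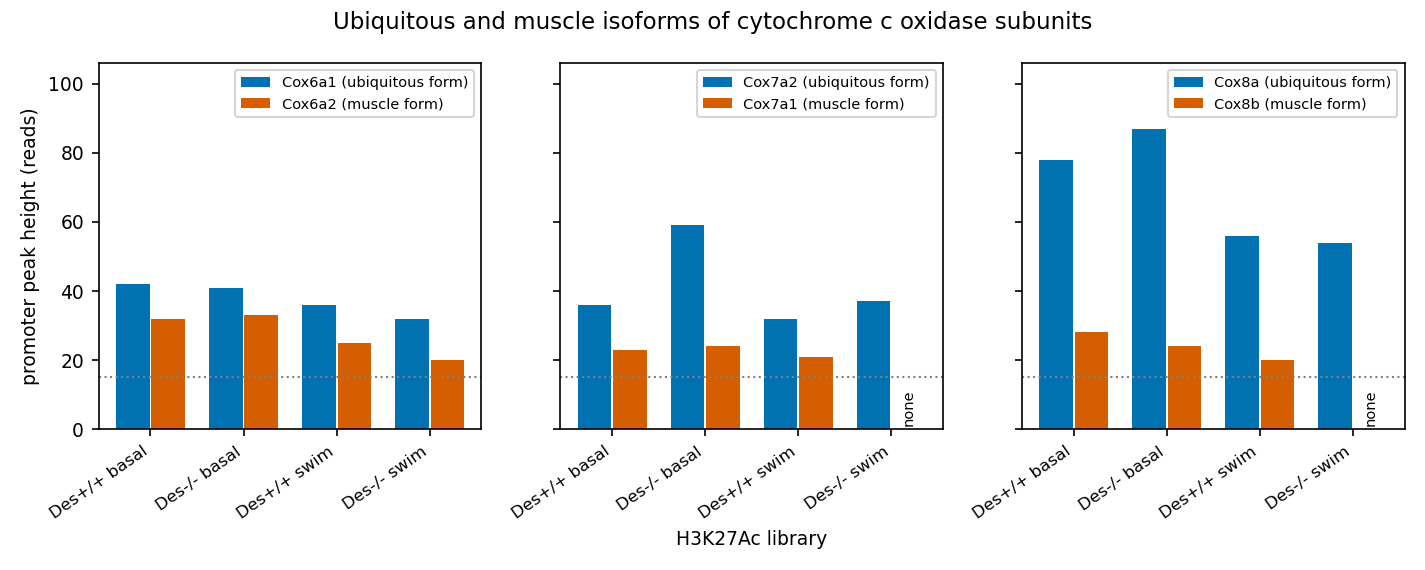
Promoter peak height in reads (bars from 0) of the form made in most tissues (blue) and the muscle form (orange) of 3 complex IV subunits in the 4 libraries, with the smallest listed height of 15 reads as a dotted line. The muscle form is lower wherever both have a peak, and Cox7a1 and Cox8b have none in Des-/- swim.

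Beside the absence of Cox7a1 and Cox8b in Des-/- swim stand the cardiomyocyte markers. All 8 (Myh6, Tnnt2, Actn2, Tnni3, Ryr2, Mybpc3, Myl2 and Pln) had a promoter peak in the other 3 lists, and 5 had one in Des-/- swim, where Actn2, Mybpc3 and Myl2 had none. The median height percentile of those with a peak was 53.0, 46.0, 55.7 and 31.5. Endothelial markers had a peak for 6, 6, 4 and 4 of 6 genes, with a median percentile of 37.9, 23.8, 37.3 and 21.1. In Des-/- swim the share of markers with a peak was thus 62.5% for cardiomyocytes and 66.7% for endothelium, near the 59.1% of all genes. The endothelial Pecam1, at 40 reads, exceeded every cardiomyocyte marker there (21 to 27 reads). The other endothelial markers did not, with Kdr at 22, Tie1 at 17 and Emcn at 16 reads and no peak for Cdh5 and Tek. In that library the share with a peak did not set the labelled cell type apart from endothelium. It did not in the basal libraries either, where all markers of both cell types had a peak. Fibroblast markers had a peak for 1, 2, 0 and 0 of 6 genes and leukocyte markers for 0 of 6 in every list. The mean input height under peaks of the whole list was 5.48 reads in Des-/- swim and 2.80 to 3.06 reads in the others, and at the member peaks the median input was 6 reads in that library and 3 reads in each of the others. The part of cell makeup or of this background in the missing peaks was not tested, and fewer cardiomyocytes and less acetylation per cell cannot be told apart in pooled chromatin.

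In complex I the highest peak in 3 lists was that of Ndufb2, an accessory subunit of the membrane arm, at 84, 83, 53 and 42 reads. Ndufa6, another accessory subunit, was at 62, 58, 43 and 49 reads and was the highest in Des-/- swim. Among core subunits, Ndufv1, which binds the flavin that accepts electrons from NADH, was at 60, 56, 42 and 40 reads, Ndufs1 at 50, 59, 38 and 37 reads and Ndufv2 at 46, 51, 35 and 42 reads. Ndufs8 was at 28 and 38 reads at rest and at 18 reads in the stressed Des-/- cells, had no peak in the stressed Des+/+ cells, and was the only core subunit missing from a list. The lowest peak of the complex in Des+/+ basal was shared by Ndufa5 (18, 23 and 15 reads, with no peak in Des+/+ swim) and Ndufv3 (18 reads, with no peak in the other lists). Over all members, Ndufaf4 (15 and 25 reads at rest, no peak after swimming) and Atp5if1 (16 reads, that list only) were lower still in Des+/+ basal. Low but present in each list were Ndufa3 (23, 23, 18 and 17 reads) and Ndufa12 (19, 26, 17 and 20 reads). The start of Ndufs3, the remaining nuclear core gene, is named in no list, and a peak at its start was given to Kbtbd4 at 44, 51, 43 and 26 reads.

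In complex II, Sdhb, the iron-sulfur subunit, was at 70, 61, 51 and 47 reads, and Sdha, the flavin subunit that oxidises succinate, at 39, 49, 36 and 39 reads. Sdhd, a membrane anchor, had no peak of its own in Des+/+ basal and 24, 18 and 26 reads in the others, and in Des+/+ basal a peak of 37 reads across its start was given to Timm8b. Sdhc, the other anchor, is named in no list. In complex III, Uqcrfs1, the Rieske iron-sulfur protein, was at 61, 71, 51 and 50 reads. It was the highest in every list of the complex III genes that the lists name. Peaks at the starts of Uqcrq and Uqcrh, given to neighbours and described below, were higher in Des+/+ basal. Uqcrc2 was at 57, 50, 32 and 47 reads, Uqcrc1 at 34, 44, 32 and 38 reads, Uqcr10 at 36, 40, 29 and 39 reads, and Uqcr11 at 24, 16 and 23 reads with no peak in Des+/+ swim.

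Sdhc and Ndufs3 belonged to 18 genes of the same name pattern in GENCODE M21 that no list names, of which 7 had a peak within 3 kb of a start in all 4 lists, 5 in some and 6 in none. The 7 included Uqcrq (81, 74, 50 and 48 reads, given to Gdf9), Uqcrh (67, 67, 40 and 41 reads, given to Lrrc41), Ndufa11 (47, 51, 33 and 32 reads, given to Vmac) and Uqcrb (34, 49, 32 and 30 reads, given to Ramacl). Conversely, the highest promoter peak of 9 members in Des+/+ basal covered the start of another protein-coding gene (12.5% of 72, against 8.82% of other genes), and in the remaining lists the shares were 12.7, 14.1 and 12.1% against 9.28, 7.93 and 8.55%. Those 9 pairs were Atp5f1a with Haus1, Atp5f1c with Kin, Atp5pf with Gabpa, Ndufb11 with Rbm10, Ndufb5 with Mrpl47, Ndufb9 with Tatdn1, Ndufs1 with Eef1b2, Ndufs6 with Mrpl36 and Sdha with Ccdc127, each pair on opposite strands. In such peaks the signal of the pair cannot be told apart.

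The summit of the member peaks lay just downstream of the start, at a median of 191, 198, 178 and 179.5 bp, and 86.1, 87.3, 84.4 and 84.8% of summits were downstream. For other genes the medians were 183, 184, 177 and 182 bp, and 75.8, 76.7, 75.3 and 75.6% were downstream. The medians were thus alike, and the share of upstream summits was smaller among the members. Atp5pf was the exception far upstream in all 4 lists.

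**Figure D4:**
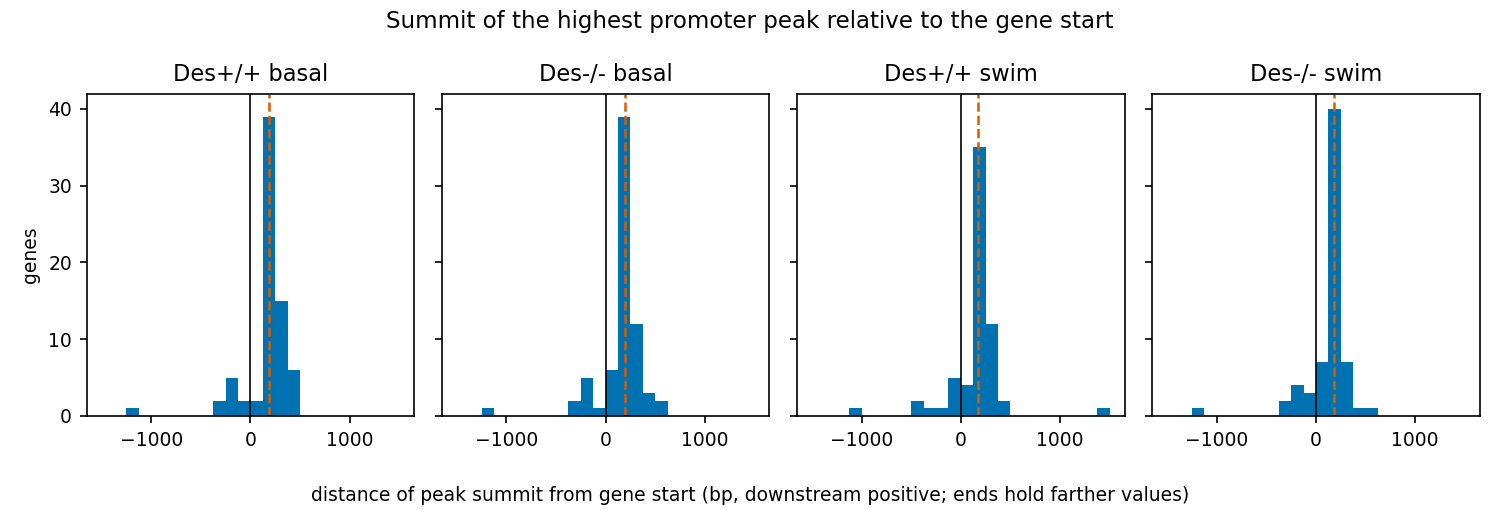
Number of members by the distance in bp from the gene start to the summit of their highest promoter peak (downstream positive), in bins of equal width, for each library. The dashed line is the median, at 191, 198, 178 and 179.5 bp, and the start is the solid line. The lone bar far to the left is Atp5pf, and the bar at the right end in Des+/+ swim is the Atp5pd peak that lies farther out than the axis.

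In width the members were ordinary. Their median for the widest promoter peak was 1027, 1085, 877.5 and 892.5 bp, against 1037, 1080, 886 and 926 bp over all genes. The widest member domain was that of Atp5pf in Des+/+ basal (2551 bp), Ndufb9 in Des-/- basal (2788 bp, chr15:58887821-58890608), Atp5pd in Des+/+ swim (2540 bp, chr11:115412356-115414895) and Cox5a in Des-/- swim (2196 bp). The Ndufb9 domain lies at an alternative start of that gene, apart from the peak of 47 reads at chr15:58932937-58934347. The peak at that alternative start in Des+/+ swim (34 reads) also covered the start of Rnf139, 384 bp from the summit. The signal of Ndufb9 and Rnf139 in that peak cannot be told apart. Other starts were searched for only in the highest promoter peak of each gene. The peaks at the alternative start in the other lists, the Des-/- basal domain among them, were therefore not searched for Rnf139. Peaks farther than 3 kb from the start of their gene numbered 8, 10, 5 and 7, given to 6, 7, 3 and 4 members, at 15 to 44 reads. The share of all genes with such peaks was not counted. Besides Cox4i2, Ndufa6 had such peaks in every list, at 16 to 33 reads.

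In the basal state, the comparison of Des-/- with Des+/+ asks what the loss of desmin does to these promoters in unstressed hearts, and the members as a group hardly differed between the 2 libraries. Of 73 members with a peak in either, 1 had it in Des-/- only (Sdhd, 24 reads), or 1.37%, against 10.7% of all genes. Another 2 had it in Des+/+ only (Atp5if1, 16 reads, and Ndufv3, 18 reads), or 2.74%, against 6.05% of all genes. Sdhd and Atp5if1 had a peak near the start in both lists when peaks given to neighbours were counted, in the case of Atp5if1 one given to Dnajc8. Ndufv3, an accessory subunit of the NADH-binding part of complex I, was then the only member with a peak in 1 of the 2 lists.

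Heights of the 70 members with a peak in both lists were compared as ratios, divided by the median ratio of all 8062 genes with a peak in both, which was 1.08. On the log2 scale the member median was -0.06 after this centring, with 31 members above 0 and 39 below. A centred ratio of 1.5 or more was reached by 3 members (4.29%, against 3.01% of all genes) and one of 1/1.5 or less by 3 members (4.29%, against 2.95%). The shares were near the background. The 3 higher in Des-/- were Ndufs5 (28 reads in Des+/+, 49 in Des-/-, centred ratio 1.62, interval 0.995 to 2.67), Ndufaf4 (15 and 25 reads, 1.54, 0.780 to 3.14) and Cox7a2 (36 and 59 reads, 1.51, 0.983 to 2.36). Next were Ndufa2 (20 and 31 reads, 1.43) and Ndufb10 (30 and 42 reads, 1.29).

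The 3 lower in Des-/- basal were Ndufs7, Uqcr11 and Ndufc1. Ndufs7, which carries the last iron-sulfur cluster before the quinone site of complex I, was at 54 reads in Des+/+ and 35 in Des-/-, a centred ratio of 0.598 (0.379 to 0.932), and was the only one of the 70 whose interval left out 1. Uqcr11 was at 24 and 16 reads (0.615, 0.305 to 1.21) and Ndufc1 at 43 and 31 reads (0.665, 0.405 to 1.08). They were followed by Atp5mj (39 and 29 reads, 0.686) and Atp5po (42 and 32 reads, 0.703). The median centred log2 ratio was -0.12 for complex I, 0.04 for complex III, 0.01 for complex IV and -0.15 for complex V, and complex II had 2 genes, at -0.31 and 0.21. The fold over input in place of height took Ndufs7 from -0.74 to -0.45 on the log2 scale, inside the 1.5-fold limit, and turned Ndufc1 to 0.12.

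After swimming, the same comparison gave more members below the middle of all genes. Of 61 members with a peak in both, 42 were below 0 and 19 above, and the median centred log2 ratio was -0.18, after division by an all-gene ratio of 1.1304 over 5411 genes. No member reached 1.5 or more, against 3.4% of all genes, and 5 reached 1/1.5 or less (8.20%, against 3.92%). By complex the medians were -0.22 for complex I, -0.06 for complex II, 0.16 for complex III, -0.22 for complex IV and -0.18 for complex V, and 13 of 16 complex V genes were below 0. The cytosolic and mitochondrial ribosomal protein genes had medians of 0.02 and 0.01. Uncentred, the member median was 0, since heights in Des-/- swim were higher for the middle gene and level for the middle member. The 5 cardiomyocyte markers with a peak in both lists had a median of -0.485 and were all below 0, and the median input under the member peaks was 6 reads against 3 in Des+/+ swim. The part of either in the members' values was not tested.

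The 5 lower members were Atp5pd, Ndufs7, Atp5f1a, Ndufb7 and Ndufab1. Ndufs7 was at 34 reads with desmin and 22 without, a centred ratio of 0.572 (0.319 to 1.01), and was the only member past 1/1.5 in both conditions. Its 4 values were thus 54 and 34 reads in Des+/+ and 35 and 22 reads in Des-/-, basal first, lower without desmin in each condition. Atp5f1a, the catalytic alpha subunit, was at 50 and 35 reads (0.619, 0.390 to 0.973), with a peak shared with Haus1. Ndufb7 was at 38 and 28 reads (0.652, 0.385 to 1.09) and Ndufab1, the mitochondrial acyl carrier protein, at 42 and 31 reads (0.653, 0.397 to 1.06). Atp5pd had the lowest centred ratio, 0.465 (0.291 to 0.730), but its 59 reads in Des+/+ swim belong to the 2540 bp domain named above. The edge of that domain is 2123 bp from the start to which the annotation tied it. That start is not the RefSeq start used here (chr11:115419919), which lies farther from the domain than 3 kb. The peak at the RefSeq start of Atp5pd had 20 reads with desmin and 31 without. With a promoter distance of 1000 bp the centred log2 ratio of Atp5pd was 0.45 in place of -1.11. The 5 highest in Des-/- swim were Ndufa8 (20 and 31 reads, 1.37), Ndufa2 (17 and 25 reads, 1.30), Uqcrc2 (32 and 47 reads, 1.30), Sdhd (18 and 26 reads, 1.28) and Ndufaf3 (23 and 32 reads, 1.23), all inside the 1.5-fold limit.

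**Figure D5:**
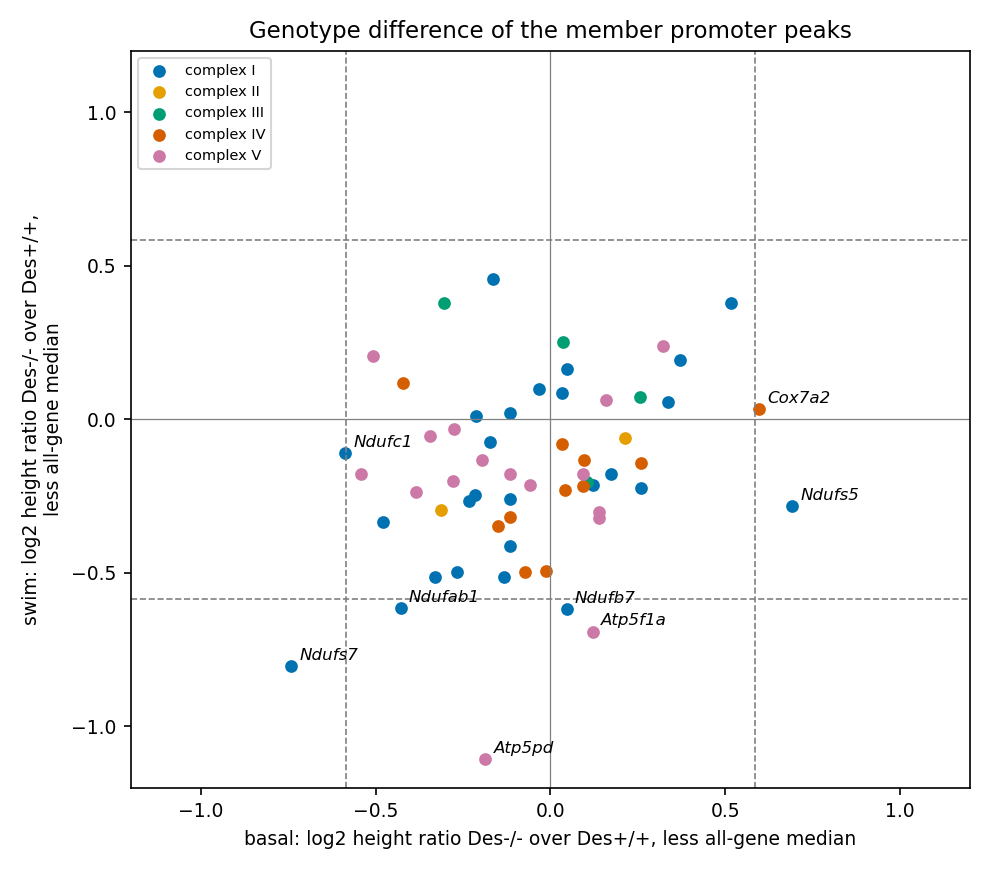
Centred log2 ratio of peak height, Des-/- over Des+/+, in the basal state (horizontal) and after swimming (vertical) for the 59 members with a peak in all 4 libraries, coloured by complex, with dashed lines at 1.5-fold. Ndufs7 is the only gene past the lower line on both axes, and the Atp5pd value after swimming rests on a peak away from its start.

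Over the 59 members with 4 heights, 26 were below 0 in both genotype comparisons, 10 were above 0 in both and 23 were mixed, or 44.1% below and 16.9% above in both. Of all 5261 genes with 4 heights, 25.6% were below and 27.1% above in both. In presence, 5 members had a peak in Des-/- swim only (7.25% of 69, against 13.8% of all genes): Atp5mk (42 reads), Ndufaf1 (25 reads), Uqcr11 (23 reads), Ndufs8 (18 reads) and Ndufa5 (15 reads). The peak at the Atp5mk start was given to Pdcd11 in the other 3 lists, at 68, 68 and 54 reads, so the gain of Atp5mk is one of assignment. Another 3 had a peak in Des+/+ swim only (4.35%, against 14.5% of all genes): Cox7a1 (21 reads), Cox8b (20 reads) and Ndufa9 (17 reads). All 3 had a peak in both basal lists as well, so that they were missing in Des-/- swim alone, and no neighbour's peak stood within 3 kb of their starts there. How many of all genes were missing in Des-/- swim alone was not counted, so no trait of the members is read from this pattern. The smallest listed height of 15 reads has a 95% Poisson interval of 8.40 to 24.7, which holds the 17 to 21 reads of these 3 genes in Des+/+ swim. Whether their lack of a peak in Des-/- swim goes beyond counting error was not tested.

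The comparison of swim with basal asks how the stress of swimming changes these promoters in each genotype. Both swim lists were shorter than the basal ones, at 11157 and 10407 peaks against 15757 and 16638, and the median ratio of swim to basal height over all genes was 0.709 in Des+/+ and 0.733 in Des-/-. In Des+/+, 10 of 74 members had a peak in basal only (13.5%, 7.51 to 23.1%, against 27.1% of all genes) and 2 in swim only (Ndufaf3 and Sdhd, 2.70%, against 3.13%). The 10 were Ndufaf8, Ndufs8, Uqcr11, Cox7b, Ndufaf1, Ndufb11, Ndufa5, Ndufv3, Atp5if1 and Ndufaf4, at 15 to 28 reads in the basal list, none of them above that list's all-gene median of 28. In Des-/-, 7 of 73 had a peak in basal only (9.59%, 4.72 to 18.5%, against 31.1%) and 2 in swim only (Atp5mk and Ndufaf3, 2.74%, against 2.88%). These 7 were Ndufaf8, Ndufaf4, Cox7a1, Cox8b, Ndufb11, Cox7b and Ndufa9, at 21 to 27 reads, all below that list's median of 30.

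Ndufaf4, Ndufaf8, Ndufb11 and Cox7b had a peak in both basal lists and in neither swim list. The share of all genes with that pattern was not counted, so no trait of the members is read from it. The gains of Ndufaf3, Sdhd and Atp5mk all vanished when peaks given to a neighbour were counted, the one at Ndufaf3 having been given to Mir191 at 36 and 35 reads in the basal lists. For comparison, 10.1% of the cytosolic and 36.7% of the mitochondrial ribosomal protein genes had a peak in basal only in Des+/+, and 13.9 and 26.8% in Des-/-. The members' basal peaks were also higher than those of the middle gene, and the part of height in their smaller share was not tested. Ndufb3, an accessory subunit of complex I, had no promoter peak in any list, but a peak at its start was given to Hycc2 at 40, 31, 28 and 35 reads.

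Centred on all 6228 genes with a peak in both Des+/+ lists, the 62 members with a peak in both had a median log2 ratio of 0.13, with 40 above 0 and 22 below, where the uncentred median was -0.36. Complex IV had 11 of 13 genes above 0 and a median of 0.14, and complexes I and V had a median of 0.10 each. Only Atp5pd reached 1.5 or more (42 reads in basal and 59 in swim, 1.98, against 3.89% of all genes, the member share being 1.61%). With the 20 reads across its RefSeq start, its centred log2 ratio was -0.57 in place of 0.99. No member reached 1/1.5 or less, against 3.02%. The next highest were Ndufab1 (41 and 42 reads, 1.44), Ndufs5 (28 and 28 reads, 1.41), Uqcrc1 (34 and 32 reads, 1.33) and Sdha (39 and 36 reads, 1.30), genes whose height was nearly level in the 2 libraries while that of the middle gene was lower in swim. The lowest were Ndufc1 (43 and 21 reads, 0.689), Cox6c (63 and 31 reads, 0.694), Ndufa10 (51 and 27 reads, 0.746), Atp5po (42 and 23 reads, 0.772) and Ndufs4 (34 and 19 reads, 0.788).

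In Des-/- the 64 members with a peak in both lists had a median of 0.01 after centring on 6184 genes, with 33 above 0 and 31 below, where the uncentred median was -0.44. A centred ratio of 1.5 or more was reached by Uqcr11 (16 reads in basal and 23 in swim, 1.96, interval 0.992 to 3.97) and Ndufaf1 (20 and 25 reads, 1.70, 0.909 to 3.24), which is 3.12% against 4.2% of all genes. One of 1/1.5 or less was reached by Ndufs8 (38 and 18 reads, 0.646, 0.347 to 1.16), or 1.56% against 2.77%. They were followed upward by Sdhd (24 and 26 reads, 1.48), Ndufa8 (30 and 31 reads, 1.41) and Uqcr10 (40 and 39 reads, 1.33), and downward by Ndufb2 (83 and 42 reads, 0.690), Cox5b (67 and 34 reads, 0.692), Atp5f1a (66 and 35 reads, 0.723) and Ndufs5 (49 and 26 reads, 0.724). None of the 64 intervals left out 1. Complex III was at a median of 0.36 with 4 of 5 genes above 0, and complex IV at -0.15 with 3 of 11 above 0. The swim and genotype comparisons share libraries, so a low value in Des-/- swim enters both.

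Other genes of the pathway were taken from lists set by function, and shares are of the genes the lists name. Of 16 electron carrier and coenzyme Q genes, 12 (75%) had a promoter peak in all 4 lists, led by Coq10b at 123, 162, 82 and 98 reads. Cycs, cytochrome c itself, was at 52, 56, 29 and 38 reads and Cyc1, the cytochrome of complex III, at 54, 44, 33 and 28 reads. Of 41 assembly factors outside the name pattern, 19 (46.3%) had one in all 4, and their median percentile was 42.8, 45.8, 34.8 and 37.3, below the subunits at 73.4, 72.4, 73.9 and 63.3. Of 13 transcription factors known to act on respiratory genes, 6 (46.2%) had one in all 4, among them Sp1 (97, 104, 77 and 74 reads), Gabpb1 (88, 107, 63 and 68 reads), Nrf1 (63, 73, 37 and 41 reads) and Yy1 (67, 66, 34 and 48 reads). Ppargc1a, the coactivator PGC-1alpha, was at 18, 18 and 15 reads with no peak in Des-/- swim, and Esrra at 25, 33, 19 and 16 reads. In the genotype comparison after swimming, a centred ratio of 1.5 or more was reached by 0 of 12 carrier genes, 1 of 20 assembly factors and 0 of 6 transcription factors (all genes 3.4%), and one of 1/1.5 or less by 2 carrier genes (16.7%) and no gene of the other lists (all genes 3.92%). At rest, 2 of 33 assembly factors were past the limit upward (all genes 3.01%) and 1 of 15 carriers downward (all genes 2.95%), with 0 of 11 transcription factors past it. For swim in Des+/+, 1 of 13 carriers was past it upward (all genes 3.89%), and 1 carrier and 1 of 26 assembly factors downward (all genes 3.02%), with 0 of 9 transcription factors past it. For swim in Des-/-, 1 of 20 assembly factors and 1 of 7 transcription factors were past it upward (all genes 4.2%) and 1 transcription factor downward (all genes 2.77%), with 0 of 13 carriers past it. The Des gene itself had a promoter peak of 30, 46, 24 and 37 reads, so a promoter peak does not check its deletion.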

How the data were processed

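Chromatin immunoprecipitation with antibodies to H3K27Ac and lamin A/C, with inputs, was deposited as 1 annotated peak list per library and antibody. According to the submitters' processing notes and the study's methods, the authors aligned reads to mm10 (GRCm38) with Bowtie2 2.4.4, handled alignments with SAMtools 1.13, called peaks in each library against its input and annotated them with ChIPseeker 1.36.0. The deposited signal values are the peak heights in reads of the ChIP and of the input, with no scaling between libraries, so the lists' sequencing depth enters the heights. The fold over input, a ratio, was computed here as ChIP height plus 1 over input height plus 1. Peak width and distance to the start, both in bp, are held as scores as deposited by the authors. Listed H3K27Ac peaks are at least 15 reads high, and a gene without a listed peak was not given the value 0.

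For each gene the highest promoter peak (within 3000 bp of its start) was kept, heights were turned into percentiles within a list, and ratios between 2 lists were divided by the median ratio of all genes with a peak in both. Genes past a centred ratio of 1.5 were counted, beside the same share over all genes. With 1 library per group no test was run. Intervals of shares are 95% Wilson intervals over genes. They take the genes of a list as independent draws, hold no spread between libraries and are not a test against the all-gene share. Those of ratios are 95% exact binomial intervals that treat height as a count of reads. They are for counting error only, and overlapping reads are not independent molecules. Scripts ran in Python 3.11.15 with pandas 2.3.3, numpy 2.4.6, SciPy 1.17.1 and matplotlib 3.10.9, and the steps were tested on simulated data. Upstream sequences came from RefSeq (GRCm38.p6) by gene ID. There was no entry used here for Atp5f1a, Atp5mj, Cox4i1, Cox4i2, Cox6a2, Cox6c, Ndufa2, Ndufb9, Ndufs1, Uqcrc2 and 1 other member. The heights of 1 member and of 1 neighbouring gene's peak are not reported here. Other gene starts came from GENCODE M21.

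The members and lists were chosen with earlier results of these data known. Genes were named by a rule: the 3 highest and lowest members and the highest of each complex in Des+/+ basal, members with a peak in some or no lists, the 5 largest ratios each way per comparison, isoform pairs, c subunits, complex II, core complex I subunits, the widest domains and Des. The genes named for shared peaks, 2 peaks, distal peaks or an unassigned start were chosen after their values were seen. The alternatives were a promoter distance of 1000 bp, subunits only, a minimum of 20 reads, peaks counted by position, fold over input or height minus input in place of height, no centring, absent peaks set to the smallest height and summed widths. Centring within 10 classes of height was chosen after seeing the data.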

Additional observations from a re-analysis of the deposited data

Results flagged for a closer look

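The genotype difference had the opposite sign in the basal state and after swimming for 3 of the 59 members with a peak in all 4 libraries, with at least 1 of the values past 1.5-fold. That is 5.08% of them, against 4.88% of all 5261 genes with 4 heights. These differences were not tested, since each value compares 1 library with 1 library. For Atp5f1a the centred log2 ratio of Des-/- to Des+/+ was 0.12 at rest and -0.69 after swimming. For Ndufb7 it was 0.0468 and -0.62. For Ndufs5 it was 0.69 and -0.28. For the swim difference compared between genotypes, 0 of 59 members met the same rule, against 4.75% of all genes.

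Lamin A/C peaks, which the comparisons above do not use, were also searched for members. The lists held 188, 831, 635 and 536 peaks in the list order, with 0, 1, 5 and 1 at members. The share of all genes with such peaks was not counted, so no trait of the members is read from these counts. Within 3 kb of a start were Atp5f1b, with 8 reads in Des-/- basal and 12 reads in Des+/+ swim, Cox4i1, with 10 reads in Des+/+ swim, and Atp5mc3, with 8 reads in the same library. The input under these peaks was 1 or 2 reads.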

How the results depend on the processing

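Of 116 alternative values for the 24 summary results, 86 stayed close to the reported one, 29 moved and 1 changed sign; of 90 for the 15 called ratios, 71 stayed past 1.5-fold, 15 came inside it and 4 changed sign. The share of members with a promoter peak was 83.1% in Des+/+ basal with a minimum of 20 reads, and 98.7% there and 97.4% in Des-/- basal with any peak near the start. Without centring, the median log2 ratio was 0.0596 for genotype at rest, 0 for genotype after swimming, -0.36 for swim in Des+/+ (a change of sign) and -0.44 for swim in Des-/-. With fold over input it was -0.28 for genotype after swimming and 0.10 for swim in Des-/-. The members past 1.5-fold (6, 5, 1 and 3 in the order of these comparisons) numbered 25, 25, 28 and 24 with fold over input, which divides by inputs of a few reads. With height minus input they numbered 10 for genotype at rest, 4 for swim in Des+/+ and 5 for swim in Des-/-, and without centring 3 for genotype after swimming, 18 for swim in Des+/+ and 21 for swim in Des-/-. With absent peaks at the smallest height both swim comparisons gave 5, and for swim in Des+/+ a promoter distance of 1000 bp gave 0 and centring within height classes, chosen after seeing the data, 2. The members with a peak in 1 list only (3, 8, 12 and 9) numbered 8 for genotype at rest and 17 for swim in Des-/- at a minimum of 20 reads, 1 for genotype at rest with any peak near the start, and 0, 1, 0 and 2 when only peaks above the median counted. The ratios that changed sign were Ndufc1 for genotype at rest (0.12) and Ndufs8 for swim in Des-/- (0.24), both with fold over input, and Atp5pd at 1000 bp, for genotype after swimming (0.45) and swim in Des+/+ (-0.57), where another peak is read. The cause of the other moves was not tested. No paired analysis was possible because each group had 1 H3K27Ac library, with no replicate number to pair and none to leave out; both genotype comparisons are given side by side in its place. Heights near 15 reads limit every statement on missing peaks.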
